A study of Mus musculus with 4 samples.

Results

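The genes that handle extracellular ATP and adenosine were examined in 4 RNA libraries labelled as skin regulatory T cells (Treg cells) of mice. The set held 8 of the 55487 genes in the tables: Entpd1, Nt5e, Cd38, Adora2a, P2rx7, Slc29a1, Ada and Adk. These genes were chosen by name, with earlier results of the UVB comparison in these libraries known, so their differences between groups are given as a description and without a test. All mice were shaved on the back and carried a psoriasis-like dermatitis from 60 mg a day of Aldara cream, which contains 5% imiquimod, which activates TLR7 and inflames the skin. The UVB group (libraries UVB 1 and UVB 2) also received 3 exposures to narrow-band ultraviolet B on alternate days, and the non-UVB group (non-UVB 1 and non-UVB 2) did not have this treatment on its labels. Strain, age, the marker used for sorting and the number of animals behind each library were not stated, so the spread between libraries of a group may be technical.

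ATP that leaves stressed or dying cells is a danger signal, which T cells sense through the ligand-gated channel P2X7 (P2rx7). Enzymes on the cell surface turn it into adenosine, first by CD39 (Entpd1), which removes phosphates from ATP and ADP, and then by CD73 (Nt5e), which splits AMP. Adenosine acts on the receptor encoded by Adora2a, which raises cyclic AMP and restrains T cells. It is cleared by the transporter ENT1 (Slc29a1), by adenosine deaminase (Ada) and by adenosine kinase (Adk). CD38 opens a parallel route, since it consumes NAD. In mice, regulatory T cells are known for carrying both CD39 and CD73.

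The libraries were uneven. They rested on about 23824900 to 42003800 reads of 100 bp, and 7825 and 8033 genes reached 1 TPM (a level scaled to transcript length and to the library) in the non-UVB libraries against 10317 and 10227 in the UVB libraries. Of 8 markers of regulatory T cells all were found, with a summed level of 1516 and 1886 TPM in non-UVB 1 and UVB 1 and of 7693 and 5699 TPM in non-UVB 2 and UVB 2. Foxp3, the defining factor of these cells, was listed at 0 in non-UVB 1 and at 3.49 TPM in UVB 1, against 19.4 and 19.3 TPM in the libraries numbered 2. Gamma-delta T cell markers showed the reverse order, with sums of 10410 and 10036 TPM in the libraries numbered 1 and of 178 and 309 TPM in those numbered 2. The label of regulatory T cells was therefore borne out unevenly, and the 2 libraries of each number resembled each other in these markers. Haemoglobin genes took 11.7% of the TPM in non-UVB 1 and at most 0.441% elsewhere.

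Of the 8 genes 6 passed the filter of at least 1 TPM in at least 2 libraries, which 10286 genes passed in all. Cd38 and Ada did not pass. At 1 TPM or more there were 4 of the 8 genes in non-UVB 1, 4 in UVB 1, 3 in non-UVB 2 and 6 in UVB 2. Only Slc29a1 reached 1 TPM in every library. By the mean TPM over the 4 libraries the order was Slc29a1 at 159 TPM, Adora2a at 57.7 TPM, Adk at 53.8 TPM, Entpd1 at 23.8 TPM, P2rx7 at 16.3 TPM and Nt5e at 14.2 TPM, and then Cd38 at 0.055 TPM and Ada at 0. Neighbours in this order from Slc29a1 to Nt5e overlapped in their library values and did not differ beyond their spread.

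**Figure D1:**
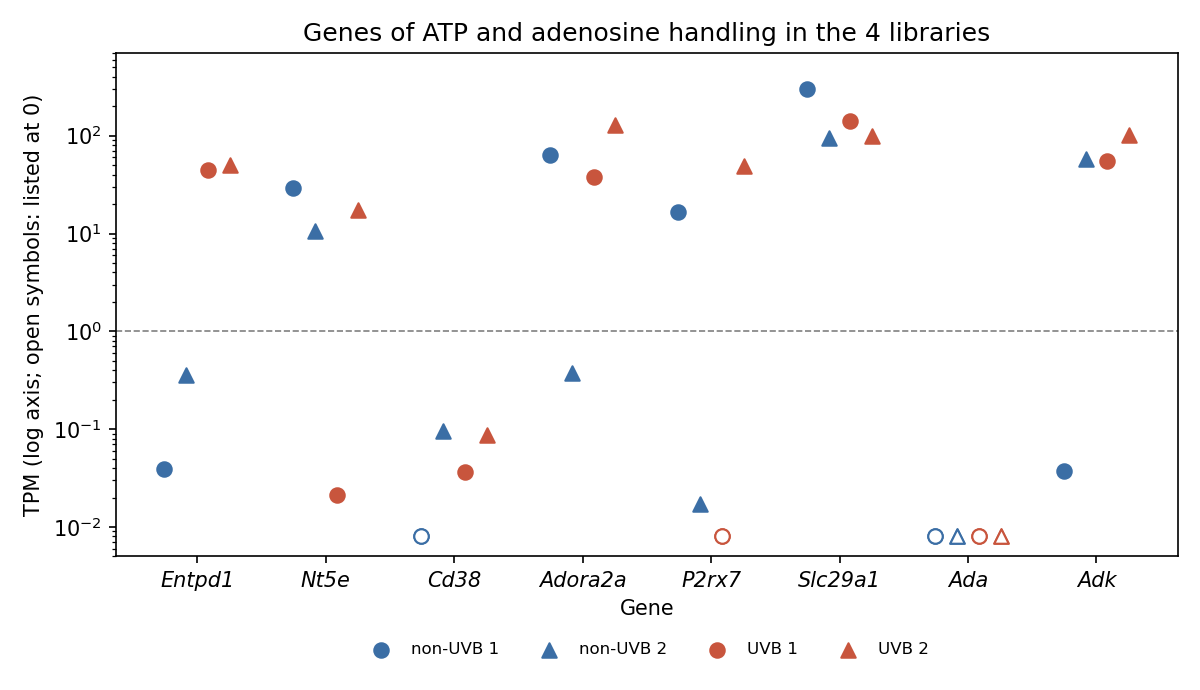
TPM on a log axis of each of the 8 genes in each library, blue for non-UVB and red for UVB, circles for number 1 and triangles for number 2, with open symbols for values listed at 0 and a dashed line at 1 TPM. Entpd1 sits at 44.6 and 50.2 TPM in the UVB libraries and below 1 TPM in the others, while Nt5e, Adora2a, P2rx7 and Adk each drop below 1 TPM in libraries that do not follow UVB alone.

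Entpd1 (ENSMUSG00000048120, chromosome 19, 40612366 to 40741602, plus strand, GRCm38) encodes CD39, the first enzyme of the pathway. Its level was 0.039 TPM in non-UVB 1 and 0.355 TPM in non-UVB 2, and 44.6 TPM in UVB 1 and 50.2 TPM in UVB 2. Both UVB libraries thus lay above both non-UVB libraries, and values within a group were close beside that gap. The mean was 0.197 ± 0.223 TPM without UVB and 47.4 ± 3.96 TPM with UVB (SD, n = 2 per group). On the scale of log2(TPM + 1), which shrinks the differences of low genes, the UVB libraries were 5.35 ± 1.06 higher (SE from the fit over all genes), with 5.46 between the libraries numbered 1 and 5.24 between those numbered 2. Entpd1 was the 1 gene of the 6 whose groups did not overlap with means at least 1 log2 apart. It passed the filter through the UVB libraries alone. Of all genes tested 18.1% lay higher with UVB by the same criterion and 6.47% lay lower, so 1 of 6 is near the background. The higher share was 73.7% of the genes separated in either direction, but 45.0% after quantile normalization and 51.2% after median scaling. Entpd1 was 4.54 and 4.74 log2 higher there, a sign that scaling could hardly turn given the gap above.

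The pattern of Entpd1, near 0 in both non-UVB libraries and well detected in both UVB libraries, was shared with many genes. Genes under 1 TPM in the non-UVB pair and at least at 10 TPM in the UVB pair numbered 484, or 4.71% of those tested, against 47 genes, or 0.457%, with the reverse. Among 7949 genes with an established name, 405 lay within a Euclidean distance of 2 log2 of Entpd1 over the 4 libraries. The 5 closest were Nasp (distance 0.24), Adprm (0.33), Rexo5 (0.37), Lias (0.39) and Ipmk (0.39). Nasp, a histone chaperone, had 0 and 0.412 TPM in the non-UVB pair against 39.7 and 56.0 TPM in the UVB pair. Lias, the lipoic acid synthase of mitochondria, had 0 and 0.246 TPM against 57.6 and 49.4 TPM.

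Macrophage and dendritic cell markers also differed between the groups, and those cells are known to carry CD39. Of 20 such markers 16 were higher with UVB within both replicate numbers. The share of all genes that met this was not computed, and 61% of all genes tested had a higher mean with UVB. The sum of the 20 markers was 14351 and 5958 TPM in non-UVB 1 and 2 and 23981 and 14778 TPM in UVB 1 and 2. Both the sum and Entpd1 were higher with UVB within each number. Across the numbers, non-UVB 1 and UVB 2 had nearly the same sum, with Entpd1 at 0.039 and 50.2 TPM. Single markers differed both ways between these libraries, with Csf1r at 240 and 104 TPM and H2-Eb1 at 270 and 771 TPM. Endothelial cells are also known to carry CD39. Of 7 endothelial markers 6 (Cdh5, Kdr, Tek, Vwf, Emcn and Cldn5) were listed at 0 in every library, and Pecam1 had 82.7 and 7.17 TPM in the non-UVB pair against 40.6 and 27.3 TPM in the UVB pair. The sum for Langerhans cells was 281 and 601 TPM in the non-UVB pair against 325 and 581 TPM in the UVB pair, but its markers went different ways. Of 4 markers 1, Epcam, was higher with UVB within both numbers, with 0 and 0 TPM against 3.65 and 127 TPM. Cd207, Cd1d1 and Mfge8 each rose with UVB in one number and fell in the other. The part of other cell types in the level of Entpd1 was not tested, and in bulk libraries fewer cells with a transcript and less of it per cell cannot be told apart.

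The deposited coverage shows how much sequence stood behind these levels. Coverage is the mean number of reads over each exonic base of a gene, and Entpd1 had a coverage of 0.0066 and 0.045 in non-UVB 1 and 2 and of 9.02 and 5.43 in UVB 1 and 2. With the exonic length of 5580 bases in GENCODE M21 this amounts to about 0.37 and 2.5 reads against about 503 and 303 reads. The ratio of coverage to FPKM gives the mean length of the transcripts to which the reads were assigned, as a share of the exonic length. For Entpd1 this share was 7.46% in UVB 1 and 6.63% in UVB 2, or 416 and 370 bases, while the longest of its 11 annotated transcripts has 4221 bases. The median gene at 1 FPKM or more had a share of 71.7% to 77.9%, and 3.80% to 4.26% of genes had a share under 10%. The TPM of Entpd1 was therefore computed largely over short transcripts, and its size relative to other genes depends on that assignment, while both UVB libraries lay above both non-UVB libraries on either scale. Gm8783, a processed pseudogene on the same strand within the Entpd1 span, had 26.8 and 10.2 TPM in the non-UVB pair. It had 42.7 and 47.1 TPM in the UVB pair, and its part in the reads of Entpd1 was not tested.

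The 2 annotated starts of Entpd1 are shown because the transcripts behind its TPM could not be told from the gene tables, and that of Nt5e for comparison. Sequences are from RefSeq on GRCm38.p6, each 250 bases before to 50 bases after a start, with capitals on the letters of 4 motifs searched on both strands: the core of the cyclic AMP response element (TGACG), the AP-1 site (TGANTCA), the Sp1 box (GGGCGG) and the CCAAT box (CCAAT). The first Entpd1 window is chr19:40612116-40612415, the second, within the gene, is chr19:40659520-40659819, and that of Nt5e is chr9:88327359-88327658, all on the plus strand.
Entpd1 first start: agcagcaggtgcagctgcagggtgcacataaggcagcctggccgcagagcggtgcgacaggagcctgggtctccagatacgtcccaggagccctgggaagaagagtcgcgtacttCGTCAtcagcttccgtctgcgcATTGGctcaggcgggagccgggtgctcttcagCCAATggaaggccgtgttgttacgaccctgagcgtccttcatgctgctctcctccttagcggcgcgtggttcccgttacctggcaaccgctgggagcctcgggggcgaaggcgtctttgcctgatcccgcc
Entpd1 second start: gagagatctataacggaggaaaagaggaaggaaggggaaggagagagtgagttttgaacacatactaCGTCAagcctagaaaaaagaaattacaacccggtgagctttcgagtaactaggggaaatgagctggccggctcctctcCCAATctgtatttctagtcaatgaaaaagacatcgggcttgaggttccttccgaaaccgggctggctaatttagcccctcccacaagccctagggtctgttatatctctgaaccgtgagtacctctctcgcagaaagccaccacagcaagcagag
Nt5e start: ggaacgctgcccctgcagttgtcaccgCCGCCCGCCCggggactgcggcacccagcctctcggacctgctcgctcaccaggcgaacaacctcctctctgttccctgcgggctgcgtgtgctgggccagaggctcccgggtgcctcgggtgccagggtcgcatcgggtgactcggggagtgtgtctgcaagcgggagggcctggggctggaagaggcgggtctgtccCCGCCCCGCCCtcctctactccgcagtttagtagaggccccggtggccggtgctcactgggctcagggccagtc

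Both Entpd1 windows held 1 core of the cyclic AMP response element, 135 and 183 bases before the start, and neither held an AP-1 site or an Sp1 box. The first held 2 CCAAT boxes and the second held 1. The Nt5e window held 4 Sp1 boxes and none of the other motifs. Of 32817 promoter windows of this length, 20.8% held the core, 7.81% the AP-1 site, 35.6% the Sp1 box and 37.4% the CCAAT box, so each of these is a common run of letters. The full palindrome of the cyclic AMP response element, in 1.79% of windows, was in none of the 3. RefSeq windows were found for 7 of the 8 genes. Of the other members, the first start of Adk held 1 core 12 bases before the start and 1 of the 8 starts of Slc29a1 held 1, while those of Cd38, P2rx7 and Ada held none.

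Nt5e (ENSMUSG00000032420, chromosome 9, 88327197 to 88372092, plus strand) encodes CD73, which makes adenosine from AMP. Its level was 29.0 TPM in non-UVB 1 and 10.5 TPM in non-UVB 2, and 0.021 TPM in UVB 1 and 17.2 TPM in UVB 2. UVB 1 alone lacked the transcript, with about 2.3 reads against about 723 to 2619 reads in the other 3 libraries, and the groups overlapped. The difference was -2.11 ± 1.89 log2, made up of -4.88 between the libraries numbered 1 and 0.66 between those numbered 2, and it was -0.03 without UVB 1. The reads of Nt5e were assigned to transcripts of 3891 to 3995 bases, and its longest annotated transcript has 3995 bases. The 5 genes of closest pattern were Ppfia1 (distance 0.30), Ahcyl2 (0.70), Rbsn (0.73), Arih1 (0.74) and Fbxl14 (0.77), and 49 genes lay within 2 log2.

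CD39 and CD73 were at 1 TPM or more together only in UVB 2, where Entpd1 stood at 50.2 TPM and Nt5e at 17.2 TPM. UVB 1 had Entpd1 at 44.6 TPM and Nt5e at 0.021 TPM, and the 2 non-UVB libraries had Nt5e without Entpd1. Which of the pair was more abundant in UVB 2 depended on the scale. Per transcript length, as TPM, Entpd1 was higher. Per exonic base, as coverage, Nt5e was higher at 12.7 against 5.43 for Entpd1.

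Cd38 (ENSMUSG00000029084, chromosome 5, 43868553 to 43912375) encodes an enzyme that breaks down NAD and yields cyclic ADP-ribose. It was listed at 0 in non-UVB 1 and stood at 0.096 TPM in non-UVB 2, 0.037 TPM in UVB 1 and 0.087 TPM in UVB 2, or about 3.2 to 5.4 reads. These values were too low to compare. Its neighbour Bst1 (chromosome 5, 43818885 to 43843986), which encodes the related enzyme CD157 of myeloid cells, had values of 0 in the non-UVB pair and stood at 12.3 and 17.3 TPM in UVB 1 and 2, with about 854 and 739 reads. Its difference of 3.96 ± 0.78 log2 did not pass the test (limma, adjusted p = 0.223 after Benjamini-Hochberg adjustment over 10286 genes, higher in 2 of 2 pairs of the same number). Bst1 passed the filter through the UVB libraries alone, so the filter itself favoured such a difference. Its UVB libraries lay above the non-UVB libraries, as those of Entpd1 did, a separation upward that 18.1% of all genes tested showed. The pattern of under 1 TPM without UVB and at least 10 TPM with UVB was shared by 4.71%. Sums of myeloid markers are given above, and the part of myeloid cells in Bst1 was not tested.

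Adora2a (ENSMUSG00000020178, chromosome 10, 75316877 to 75334784, plus strand) encodes the main adenosine receptor of T cells. It was at 63.7 TPM in non-UVB 1, 0.371 TPM in non-UVB 2, 37.5 TPM in UVB 1 and 129 TPM in UVB 2. Non-UVB 2 alone was low, with about 9.6 reads against about 1538 to 2810 elsewhere, and the groups overlapped because non-UVB 1 lay above UVB 1. The difference was 2.91 ± 2.23 log2, with -0.75 between the libraries numbered 1 and 6.57 between those numbered 2, and it was 0.13 without non-UVB 2. By coverage Adora2a stood far above Entpd1 in the same libraries, at 50.2 against 9.02 reads per base in UVB 1 and at 91.8 against 5.43 in UVB 2, whereas by TPM it was below Entpd1 in UVB 1.

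**Figure D2:**
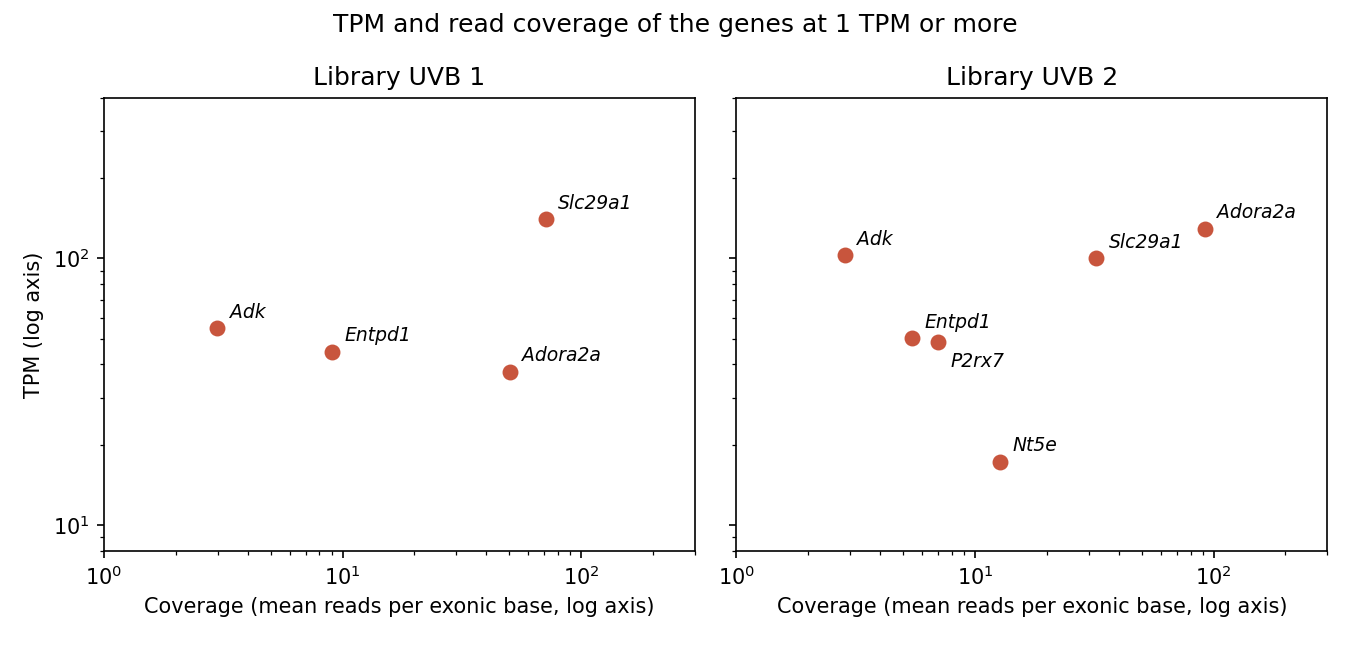
TPM against coverage (mean reads per exonic base), both on log axes, for those of the 8 genes at 1 TPM or more in UVB 1 (left) and UVB 2 (right), 1 point per gene. Adk and Entpd1 have high TPM at low coverage, 54.6 TPM at 2.98 and 44.6 TPM at 9.02 in UVB 1, while Adora2a has 37.5 TPM at a coverage of 50.2.

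P2rx7 (ENSMUSG00000029468, chromosome 5, 122643911 to 122691432, plus strand) encodes the ATP-gated channel P2X7, whose opening can kill T cells. It was at 16.8 TPM in non-UVB 1 and 0.017 TPM in non-UVB 2, listed at 0 in UVB 1, and at 48.4 TPM in UVB 2. One library of each group carried it, and the number of the carrying library differed between the groups. The difference was 0.73 ± 2.67 log2, with -4.15 and 5.60 within the numbers 1 and 2, and it was -1.34 without non-UVB 2 and 3.54 without UVB 1. The 2 libraries that carried it rested on about 133 and 418 reads, assigned to transcripts of 351 and 528 bases, where the 8 annotated transcripts have 433 to 4936 bases. The 16.8 TPM of non-UVB 1 thus came from a mean length below the shortest of them and is uncertain. Its size is as dependent on the assignment of reads as that of Entpd1.

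Slc29a1 (ENSMUSG00000023942, chromosome 17, 45585200 to 45599606, minus strand) encodes ENT1, a carrier that moves adenosine across the membrane in both directions. It had 301 and 95.0 TPM in non-UVB 1 and 2 and 140 and 100.1 TPM in UVB 1 and 2. Both libraries numbered 1 lay above both numbered 2, and the UVB libraries lay between the non-UVB libraries. The difference with UVB was -0.51 ± 0.75 log2, and 0.32 without non-UVB 1, while the libraries numbered 2 were -1.07 log2 from those numbered 1. Of genes tested 15.1% were lower and 14.9% higher in the libraries numbered 2 by the criterion of no overlap and at least 1 log2, so the 2 of 6 genes that met it here, Slc29a1 and Adk, stood near the background. Gamma-delta markers were higher in the same libraries as Slc29a1, with the sums given above, and their part in its level was not tested.

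Adk (ENSMUSG00000039197, chromosome 14, 21052574 to 21448569, plus strand) encodes adenosine kinase, which returns adenosine to AMP inside the cell. It was at 0.038 TPM in non-UVB 1, 58.2 TPM in non-UVB 2, 54.6 TPM in UVB 1 and 103 TPM in UVB 2. Non-UVB 1 alone was low, and the groups overlapped because non-UVB 2 lay above UVB 1. The difference with UVB was 3.28 ± 2.26 log2, with 5.74 and 0.81 within the numbers, and it was 0.36 without non-UVB 1. The coverage told the libraries apart differently, with 0.0021 and 0.363 in non-UVB 1 and 2 and 2.98 and 2.84 in UVB 1 and 2, or about 0.18, 31, 254 and 242 reads. On that scale both UVB libraries lay above both non-UVB libraries. The 58.2 TPM of non-UVB 2 came from reads assigned to a mean length of 31 bases, below the shortest annotated transcript of 147 bases, so this TPM is uncertain. The mean length of 145 bases in UVB 2 lay just below that limit too.

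Ada (ENSMUSG00000017697, chromosome 2, 163726584 to 163750239, minus strand) encodes adenosine deaminase, which turns adenosine into inosine. It was listed at 0 for TPM and coverage in all 4 libraries. Dpp4, the surface protein CD26 that binds adenosine deaminase in humans, had 0 and 0.113 TPM in the non-UVB pair against 4.20 and 1.03 TPM in the UVB pair. A value of 0 for a gene of general metabolism in a table of this kind may be a failed estimate, and no absence is read from it.

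Of the 6 genes 5 were at 10 TPM or more in 1 library and under 1 TPM in another, the exception being Slc29a1. Of all genes tested 42.4% showed such a gap. The library that fell under 1 TPM was both non-UVB libraries for Entpd1, UVB 1 for Nt5e, non-UVB 2 for Adora2a, non-UVB 2 and UVB 1 for P2rx7 and non-UVB 1 for Adk, so no library was low for all of them. Of the 6 genes 4 had a higher mean with UVB, as did 61% of all genes tested, and their median difference was 1.82 log2 beside 0.26 log2 for all genes. Within both numbers 2 of the 6, Entpd1 and Adk, were higher with UVB, and the share of all genes that met this was not computed.

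**Figure D3:**
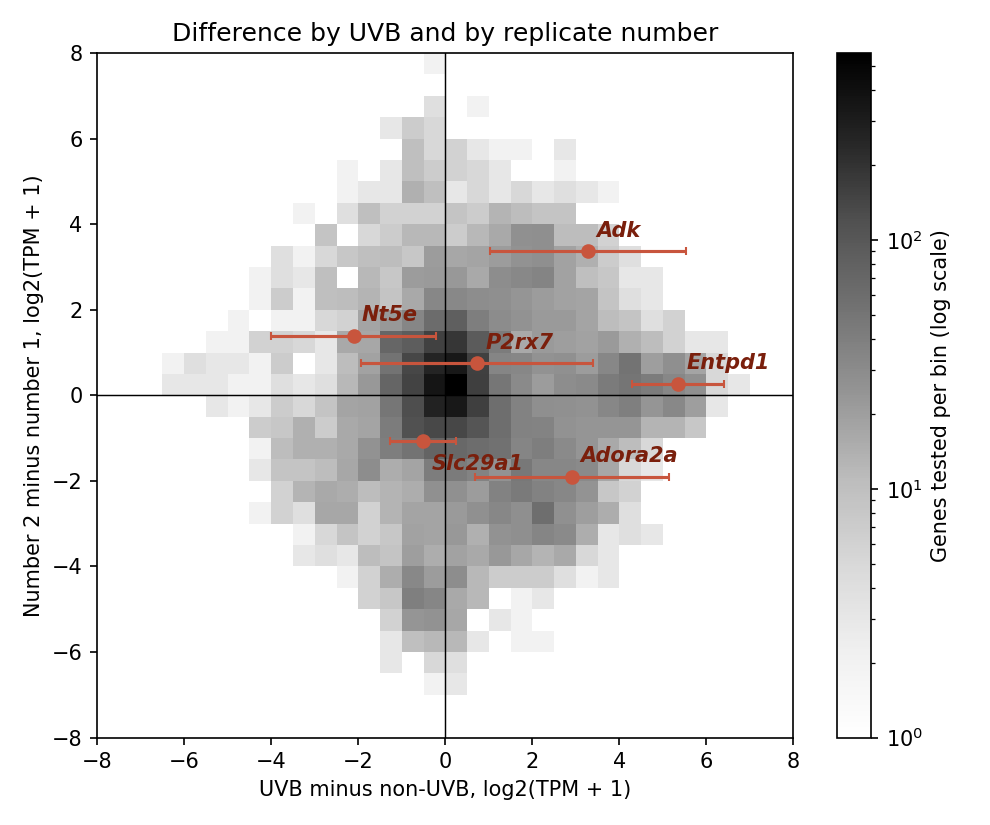
Difference of UVB minus non-UVB (horizontal, with bars of 1 SE) and of number 2 minus number 1 (vertical), both in log2(TPM + 1), for the 6 genes that passed the filter, over a grey map of how many of 10286 genes fall in each bin (log colour scale). Entpd1 lies at 5.35 by UVB and 0.28 by number, Adk differs by 3.28 and 3.37, and Slc29a1 by -0.51 and -1.07.

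Other genes of ATP and adenosine handling, 89 in a list by role, were then examined with the test over all genes. Of these 48 passed the filter, and 0 of 48 had an adjusted p under 0.05 in either direction (limma, Benjamini-Hochberg over 10286 genes), as 0% of all genes had. With 2 libraries per group few genes could reach this threshold, so the 0 is no evidence of equal levels. At an unadjusted p under 0.05 there were 7 of the 48, beside 11.3% of all genes. A higher mean with UVB was found for 27 and a lower one for 21, and the median difference was 0.33 log2, beside 0.26 log2 for all genes tested, and turned to -0.27 after median scaling, when that of all genes was -0.35. The UVB libraries were separated upward by at least 1 log2 for 14 of the 48 genes and downward for 6, beside 18.1% and 6.47% of all genes, a split that depends on the scaling as given above. By replicate number, 7 of the 48 were separated with number 2 higher and 11 with number 1 higher, beside 14.9% and 15.1% of all genes. At 1 TPM or more the list held 35 and 32 genes in the non-UVB pair and 56 and 46 in the UVB pair, UVB libraries above the others as for genes in general.

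Of the channels and carriers that release ATP 3 passed the filter. Slc17a9, which loads ATP into vesicles, had 0 and 0.271 TPM in the non-UVB pair and 17.5 and 5.27 TPM in the UVB pair (3.26 ± 0.89 log2, limma adjusted p = 0.275). Slc17a9 passed the filter through the UVB libraries alone. Gja1, the connexin of keratinocyte junctions, was at 0.047 and 6.65 TPM against 17.2 and 87.6 TPM. Keratinocyte markers summed to 311 and 3697 TPM in the non-UVB pair against 461 and 4213 TPM in the UVB pair. Only 3 of the 10 were higher with UVB within both numbers. Krt14 was at 1526.5 TPM in non-UVB 2 and 1232 TPM in UVB 2, while Krt17 was at 339 and 1226 TPM. The part of keratinocytes in the level of Gja1 was not tested. Panx1, the pannexin channel through which dying T cells release ATP, was at 30.1 and 0.315 TPM against 29.2 and 24.7 TPM.

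Among other surface enzymes, Entpd2, Entpd3, Entpd8, Enpp3 and Alpl were listed at 0 in every library, from which no absence is read. Acpp, an acid phosphatase that can also split AMP, was at 133 TPM in non-UVB 1, 13.2 TPM in UVB 1, 1.31 TPM in non-UVB 2 and 8.36 TPM in UVB 2. Enpp1, which cleaves ATP to AMP, was at 6.98 TPM in UVB 2 and at most 0.11 TPM elsewhere. Art2a, whose relatives modify P2X7 with ADP-ribose, was at 10.3 TPM in non-UVB 1 and listed at 0 in the other 3 libraries.

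Among receptors, the gene of a second cyclic AMP-raising adenosine receptor, Adora2b, followed the replicate number. The libraries numbered 1 had 34.5 TPM without and 49.7 TPM with UVB, and those numbered 2 had 0 and 0.063 TPM, a difference between numbers of -5.36 log2, beside a UVB difference of 0.30 ± 2.90 log2. Adora2a did not follow the number, so the libraries numbered 1 carried both cyclic AMP-raising receptors and UVB 2 carried Adora2a alone. Adora1 was listed at 0 throughout and Adora3 was at most 0.028 TPM. P2rx4, an ATP-gated channel of myeloid and T cells, had 0.006 and 1.16 TPM in the non-UVB pair against 4.82 and 65.5 TPM in the UVB pair (3.74 ± 1.62 log2, limma adjusted p = 0.597). The other 5 P2X genes were listed at 0 in all libraries.

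None of the 7 P2Y receptor genes passed the filter, since each reached 1 TPM in at most 1 library. In UVB 1 P2ry12 was at 27.4 TPM, P2ry6 at 21.8 TPM, P2ry14 at 21.1 TPM and P2ry2 at 9.46 TPM, and none of these exceeded 0.059 TPM in the other 3. UVB 1 also had the highest sum of macrophage and dendritic cell markers, cells that are known for P2Y6 and P2Y14, and their part in these values was not tested. P2ry1 was at 14.3 TPM in UVB 2.

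**Figure D4:**
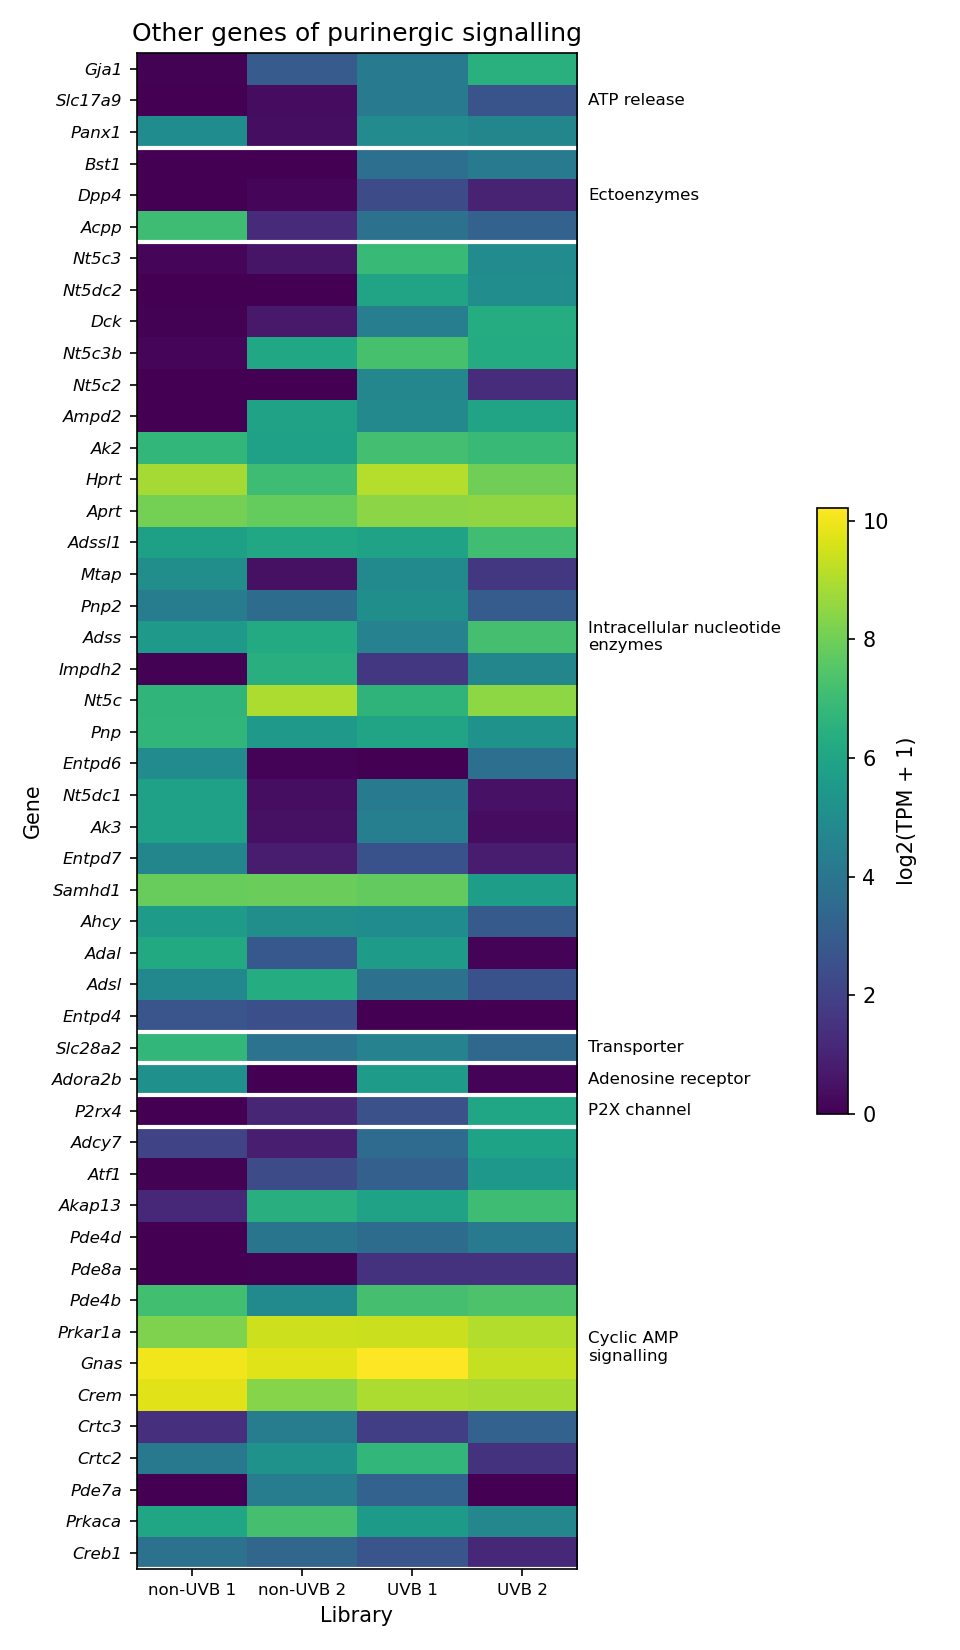
Heat map of log2(TPM + 1) for the 48 other genes that passed the filter, 1 row per gene grouped by role and ordered within a role by the UVB difference, 1 column per library. Bst1, Nt5c3 and Nt5dc2 are dark in both non-UVB libraries, Entpd4 is dark in both UVB libraries, Adora2b is dark in both libraries numbered 2, and Gnas, Crem, Hprt and Aprt are bright in all 4.

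Enzymes that handle nucleotides inside the cell were the best detected role, with 25 of 30 genes tested, 13 with a higher and 12 with a lower mean with UVB. Aprt and Hprt, the salvage enzymes for adenine and for hypoxanthine and guanine, had 271 and 220 TPM and 453 and 132 TPM in non-UVB 1 and 2, and 346 and 371 TPM and 536 and 255 TPM in UVB 1 and 2. Pnp, which splits the inosine that adenosine deaminase makes, had 106 and 45.7 TPM in the non-UVB pair against 61.3 and 35.6 TPM in the UVB pair. At the upper end stood Nt5c3, a pyrimidine nucleotidase, with 0.148 and 0.487 TPM against 116 and 29.6 TPM (5.52 ± 1.28 log2), and Nt5dc2, listed at 0 in the non-UVB pair and at 62.1 and 30.8 TPM in the UVB pair (5.49 ± 1.08). At the lower end stood Entpd4, a Golgi relative of CD39, with 5.43 and 4.63 TPM in the non-UVB pair and values of 0 in the UVB pair (-2.59 ± 0.49). All 3 had a limma adjusted p of 0.223. Each passed the filter through a single group, so the filter itself favoured such differences.

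The transporter Slc28a2, which takes up adenosine and other purine nucleosides with sodium, had 107 and 13.9 TPM in non-UVB 1 and 2 and 21.9 and 9.74 TPM in UVB 1 and 2. Like Slc29a1 it was higher in both libraries numbered 1. Slc29a2 and Slc29a3, the relatives of ENT1, were at 18.6 and 5.37 TPM in UVB 1 and at most 0.022 TPM in the others.

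In the cyclic AMP pathway below the receptors, the genes above 1 TPM in every library included Gnas, Prkar1a, Crem and Prkaca. Prkaca had 64.6 and 148 TPM in the non-UVB pair against 46.7 and 25.3 TPM in the UVB pair (-1.48 ± 0.77 log2). Gnas, the stimulatory G protein subunit, had 1021 and 854 TPM in the non-UVB pair against 1192 and 641 TPM in the UVB pair, differing by -0.10 ± 0.44 log2. Prkar1a, a regulatory subunit of protein kinase A, had 304 and 694 TPM against 669 and 521 TPM, and Crem, a repressor of cyclic AMP-responsive genes, had 870 and 326 TPM against 496 and 468 TPM. The levels of Crem are uncertain, since its reads were assigned to mean lengths of 196 to 235 bases, below its shortest annotated transcript of 290 bases, and those of Gnas came from 461 to 466 bases where the shortest has 480. Adcy7, an adenylyl cyclase that makes cyclic AMP in leukocytes, had 3.32 and 0.79 TPM against 10.8 and 59.3 TPM (3.26 ± 1.43 log2). The 59.3 TPM of Adcy7 in UVB 2 is uncertain, since it came from a mean length of 304 bases, below the shortest annotated transcript of 936 bases. Its coverage was 4.37 in UVB 2 and 7.10 in UVB 1. These values are not scaled to depth, which was 2.38 and 4.20 gigabases, so they do not rank the 2 libraries. Creb1, the activator that binds the response element, was at 13.4 and 9.39 TPM against 5.41 and 1.18 TPM (-1.71 ± 1.18, limma adjusted p = 0.902). Of 14 genes tested in this role 7 had a higher and 7 a lower mean with UVB.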

How the data were processed

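RNA libraries came from an ultra-low-input SMARTer kit and single-end reads of 100 bp, per the labels' protocols. The submitters' processing notes name HISAT2, StringTie, DESeq2 and GRCm38 (mm10). Versions, strand and gene annotation: not given in the sources used here. The authors deposited coverage (a signal not scaled to depth), FPKM and TPM for each gene, per the file headers.

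A gene entered the fit with 1 TPM or more in 2 or more of 4 libraries. Genes near 0 in 1 group thus entered through the other group alone, which favours a separation of the groups. limma 3.58.1 (R 4.3.3) compared log2(TPM + 1) by group, with an intensity trend and Benjamini-Hochberg adjustment at 0.05. Nothing says that libraries came from separate animals, so p-values may reflect technical spread alone. The script was tested on simulated data. At the measured spread and with 2 libraries per group the test could call few changed genes, so a lack of calls is no evidence of equal levels.

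The highest ratio of coverage to FPKM gave the bases behind a library, 3.41 and 2.47 gigabases in non-UVB 1 and 2 and 4.20 and 2.38 in UVB 1 and 2. Approximate reads are coverage times the exonic length in GENCODE M21 over 100, an annotation that may differ from the authors'. With it, 95.4% to 95.9% of genes had a mean transcript length between their shortest and longest transcript within 1%. Whole reads were not recovered, so no counting interval is given.

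The 8 genes and the list of 89 were chosen with earlier results of these data known. Named beside the 8 were, in each role, the genes at either end of the UVB difference and the most abundant, surface enzymes and receptors at any level, the 5 closest patterns to Entpd1 and Nt5e, and defining markers. Crem, Pnp, Slc29a2, Slc29a3 and further genes outside this rule were chosen after their values were seen. Alternatives changed the pseudocount, filter, unit, scaling, haemoglobin, trend, block and libraries.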

Additional observations from a re-analysis of the deposited data

How the results depend on the processing

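The difference of Entpd1 was above 0 in all 11 alternatives that kept the gene. This sign was all but fixed in advance, with 0.039 and 0.355 TPM without UVB against 44.6 and 50.2 TPM with UVB. The difference was 7.56 and 3.33 log2 with a pseudocount of 0.1 and 5, and 4.84 with FPKM. It was 4.54 after quantile normalization, 4.74 after median scaling, and 5.16 to 5.54 with 1 library left out. Without either UVB library the gene no longer passed the filter. Genes past the threshold numbered 0 in all 15 alternatives, also for the other purinergic genes, including the replicate block (0); with 2 libraries a group, this says nothing about stability. The replicate numbers share no stated source, and the deviations of libraries with the same number correlated at 0.17 over 10286 genes. Separated genes numbered 2524, and 2688 to 4879 with 1 library left out, where a lone library separates more easily. Of the 6 genes tested, 4 had higher means, and 2 to 4 with 1 library left out (2 of 4 tested without UVB replicate 2).

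The median of the other purinergic genes was 0.54 and 0.19 log2 with a pseudocount of 0.1 and 5, 0.53 without a filter, 0.19 with a filter of 5 TPM, 0.16 with FPKM, 0.10 after quantile normalization, 0.24 without haemoglobin, 0.52 with coverage per gigabase (chosen after seeing the data, pseudocount 0.05) and 0.35 to 0.88 with 1 library left out. It turned to -0.27 after median scaling, when the median of all genes moved from 0.26 to -0.35 (-0.19 after quantile normalization). Single libraries decided the size of the other differences, which ran from -4.19 to -0.03 for Nt5e, 0.13 to 5.69 for Adora2a, 0.36 to 6.19 for Adk, -1.34 to 3.54 for P2rx7 and -1.34 to 0.32 for Slc29a1 with 1 library left out.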
